A study of Mus musculus with 6 samples.

Results

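A set of 10 genes of the cellular antioxidant defence and of metal binding were followed in astrocyte polysomal mRNAs from the hippocampus of Cx43FL and Cx43KO mice, the latter bred to delete Connexin 43 (Cx43, gene Gja1), the main gap junction protein of astrocytes. They were Nfe2l2, Gclc, Gclm, Gstm1, Gstm5, Hmox1, Prdx6 and the metallothioneins Mt1, Mt2 and Mt3, chosen by name for their known roles. Earlier results of these data were known when the choice was made. These genes make 10 of the 22086 genes in the counts. All 10 were counted in every library and all 10 were among the 13545 genes with enough counts to be tested. Ribosomes were recovered by translating ribosome affinity purification (TRAP), in which the ribosomal protein L10a fused to eGFP is driven by the astrocyte promoter Aldh1l1, so that mRNAs bound to the tagged ribosomes can be pulled down. Each of the 6 libraries came from whole hippocampi of mice aged 6 weeks that carried the Aldh1L1-RPL10aGFP transgene and a floxed Cx43 allele on both chromosomes (Cx43 fl/fl). The 3 Cx43FL libraries (littermates) had no further allele, and the 3 Cx43KO libraries also carried Cre under the human Gfap promoter. Cre and the tagged ribosome are driven by different promoters, so the cells that hold tagged ribosomes need not all have lost Cx43. How many mice entered a library was not given in the sources used here, so p-values measure the spread between these libraries.

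Astrocytes are the main store of glutathione in the brain and pass its building blocks to neurons. The transcription factor Nrf2, encoded by Nfe2l2, is kept low by its partner Keap1 and, when cells meet oxidants or electrophiles, enters the nucleus and binds antioxidant response elements near genes such as Gclm, Hmox1 and the glutathione transferases. Metallothioneins are small cysteine-rich proteins that hold zinc and copper, and Mt1 and Mt2 are switched on through metal response elements bound by the zinc sensor Mtf1.

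To show where such elements could be read in the genes described here, promoter windows of 300 bases (250 before and 50 after the annotated start, RefSeq, GRCm38.p6) were searched for the antioxidant core TGACNNNGC and the metal cores TGCACNC and TGCGCNC on both strands. A window was found for 7 of the 10 genes. Those of Mt1 (chr8:94178839-94179138, plus strand) and Mt2 (chr8:94172368-94172667, plus strand) are printed because the levels of these genes varied alike between libraries. That of Gstm5 (chr3:107895604-107895903, plus strand) is printed because, on the transcripts counted, it was the only gene whose genotypes did not overlap with TMM factors. That of Gclm (chr3:122245307-122245606, plus strand) is printed because both kinds of core occur in it. Capitals mark the cores found on either strand.
Mt1: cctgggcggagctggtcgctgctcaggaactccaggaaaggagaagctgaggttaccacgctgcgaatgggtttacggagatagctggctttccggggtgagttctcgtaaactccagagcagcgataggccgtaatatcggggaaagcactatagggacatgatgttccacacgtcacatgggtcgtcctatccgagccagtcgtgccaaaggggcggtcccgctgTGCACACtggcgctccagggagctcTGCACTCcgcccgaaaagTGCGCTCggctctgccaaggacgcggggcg
Mt2: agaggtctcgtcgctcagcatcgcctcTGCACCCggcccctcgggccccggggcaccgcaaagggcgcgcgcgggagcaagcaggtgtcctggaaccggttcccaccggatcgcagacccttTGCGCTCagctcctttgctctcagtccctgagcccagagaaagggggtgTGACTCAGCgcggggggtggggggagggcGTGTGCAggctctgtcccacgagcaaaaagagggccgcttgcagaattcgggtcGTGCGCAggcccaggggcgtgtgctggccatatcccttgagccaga
Gstm5: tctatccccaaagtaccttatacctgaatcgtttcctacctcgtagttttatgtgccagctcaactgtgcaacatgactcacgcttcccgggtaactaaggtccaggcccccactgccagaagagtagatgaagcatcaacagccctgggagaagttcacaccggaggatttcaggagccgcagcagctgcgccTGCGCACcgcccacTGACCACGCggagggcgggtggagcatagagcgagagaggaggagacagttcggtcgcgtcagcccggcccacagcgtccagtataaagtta
Gclm: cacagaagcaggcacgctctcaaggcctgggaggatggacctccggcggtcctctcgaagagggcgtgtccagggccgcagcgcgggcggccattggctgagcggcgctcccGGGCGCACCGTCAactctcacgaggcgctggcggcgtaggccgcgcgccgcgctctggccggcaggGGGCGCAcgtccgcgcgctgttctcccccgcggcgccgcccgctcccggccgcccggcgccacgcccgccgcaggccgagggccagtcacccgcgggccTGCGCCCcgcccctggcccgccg
The Mt1 window held 3 metal cores and 0 antioxidant cores, and the Mt2 window 4 metal cores and 1 antioxidant core. The Gclm window held 1 antioxidant core and 3 metal cores, 1 of which overlapped the antioxidant core and is joined to it in the printed capitals, and Gstm5 held 1 of each. Mt3 and Gstm1 had 1 metal core and no antioxidant core, and Nfe2l2 1 antioxidant core alone. The annotated start of the window lay 46 bases before the start of the counted transcript for Mt2 and 22 bases before it for Nfe2l2. Among all 32851 windows of the same length, 12.4% held an antioxidant core and 25.7% a metal core, and 1.97% held at least 3 metal cores. These matches describe letters in the window and do not show binding.

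The libraries held 14787303 to 15391214 gene counts in Cx43FL and 16056347 to 34733473 in Cx43KO. Gja1 itself was at 92.0, 91.7 and 82.3 CPM (counts relative to the total over the tested genes in each library times its TMM factor) in Cx43FL and at 87.2, 98.4 and 95.1 CPM in Cx43KO, so these counts of its whole transcript do not show the deletion. One Cx43KO library, replicate 1, stood apart from the other 5 on the leading principal component of expression, which held 41.0% of the variance. The summed level of 15 astrocyte markers was 17154 CPM in that library, against 37440 to 40806 CPM in Cx43FL and 36607 and 51598 CPM in the other Cx43KO libraries. The summed level of 10 neuron markers was 6962 CPM there, against 1970 to 2679 CPM in Cx43FL and 2660 and 4047 CPM in the other Cx43KO libraries, and that of 8 oligodendrocyte markers was 2604 CPM against 588 to 978 CPM in the other 5 libraries. The tagged ribosome is driven by an astrocyte promoter, so neuron and oligodendrocyte mRNAs need not come from tagged cells. In bulk polysomal mRNA, fewer tagged cells and less RNA per cell cannot be told apart. The share of mRNA carried over from untagged cells was not measured. Another library, Cx43FL replicate 2, had 482 CPM of 8 choroid plexus and ependyma markers, where the other Cx43FL libraries had 9967 and 15354 CPM and Cx43KO 22198 to 33068 CPM. The serial numbers of the deposited files run in 1 series for Cx43FL and in another for Cx43KO, so whatever they mark, which was not given in the sources used here, cannot be told apart from genotype. The values of the 10 genes are also given without Cx43KO replicate 1, and, where it decides a value, without Cx43FL replicate 2.

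None of the 10 genes was called different between genotypes. A call needed a Benjamini-Hochberg adjusted p below 0.05 in edgeR's quasi-likelihood test together with over 50 normalized counts on average in whichever genotype was higher, which 0.00738% of the tested genes met in either direction. At an unadjusted p below 0.05 the count was 0 of 10, against 8.34% of tested genes, and DESeq2 with its normal prior called 0 of 10, against 0.827%. The lowest adjusted p of the 10 genes was 0.636, for Mt3. Fitted log2 fold changes of Cx43KO against Cx43FL had a median of -0.42 over the 10 genes and of 0.07 over all tested genes. Without Cx43KO replicate 1 these medians were -0.17 and 0.00, and without Cx43FL replicate 2 that of the 10 genes was -0.12. The size of change that the data leave possible was wide, since the 95% intervals of the 10 genes reached from -2.23 to 1.28.

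The 10 genes covered a broad range of levels. Per kilobase of transcript, the mean level in Cx43FL was 9456 ± 7653 CPM per kb for Mt1 and 7915 ± 4404 CPM per kb for Mt2 (SD, n = 3), ranks 2 and 3 of all tested genes in Cx43FL. Gstm1 at 1782 ± 82.6, Gstm5 at 1669 ± 156 and Prdx6 at 1647 ± 385 CPM per kb formed the next step, with ranges that overlapped one another. The counted Gstm5 transcript of 1083 bases is annotated to nonsense-mediated decay and was chosen by 1 count over a coding transcript of 945 bases (190568 against 190567 counts in all), on whose length Gstm5 was at 1913 ± 179 CPM per kb and came before Gstm1. Far below these came Mt3 at 96.1 ± 40.5, Nfe2l2 at 60.0 ± 5.97, Gclm at 49.6 ± 5.64, Gclc at 34.3 ± 3.72 and Hmox1 at 19.2 ± 1.18 CPM per kb. In this order the ranges of the Cx43FL libraries did not overlap between Mt2 and Gstm1, between Prdx6 and Mt3, between Gclm and Gclc, and between Gclc and Hmox1. Cx43KO kept the same order except that Mt2 (5426 ± 2615 CPM per kb) stood before Mt1 (4985 ± 2764 CPM per kb).

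**Figure D1:**
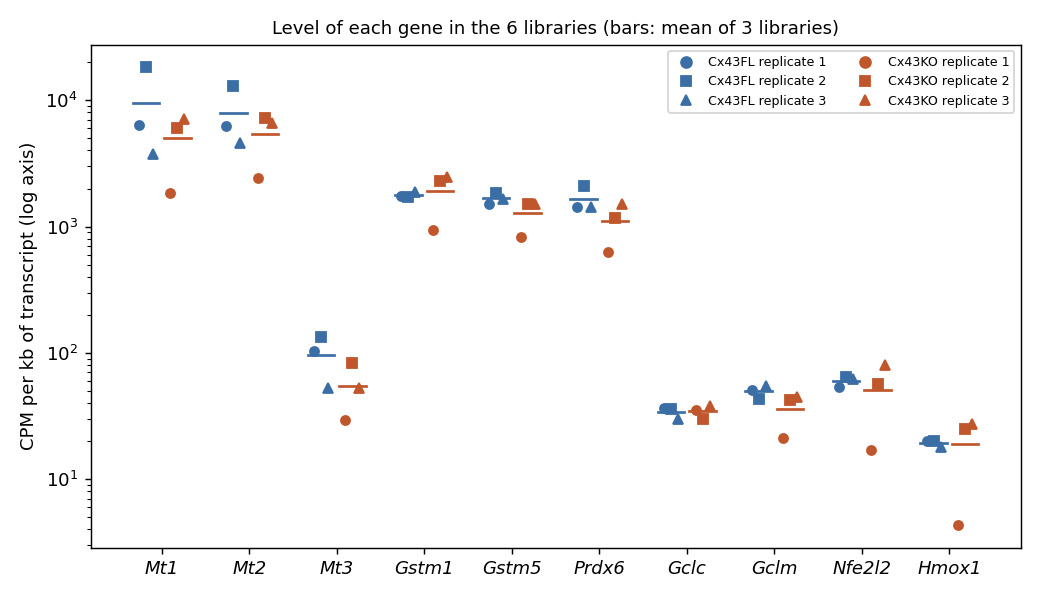
Level of each of the 10 genes in CPM per kb of transcript (log axis) in the 3 Cx43FL (blue) and 3 Cx43KO (orange) libraries, with symbols for replicates and bars for the mean of 3 libraries. Mt1 and Mt2 lie highest, and Cx43KO replicate 1 is the lowest point for every gene but Gclc.

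Metallothioneins varied most among the control libraries. Mt1 (ENSMUST00000034215, chromosome 8: 94179082 to 94180327, plus strand, 3 exons, GRCm38), which stores zinc and copper, was at 3524, 9970 and 2078 CPM in Cx43FL replicates 1 to 3 and at 1017, 3308 and 3886 CPM in Cx43KO. Cx43FL replicate 2 was the high library and Cx43KO replicate 1 the low one, and the other Cx43KO libraries lay within the range of Cx43FL. The log2 fold change of Mt1 was -0.92 (95% interval -2.23 to 0.39, edgeR adjusted p = 0.657, exact permutation p = 0.5). It was -0.54 without Cx43KO replicate 1 and -0.05 without Cx43FL replicate 2.

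Mt2 (ENSMUST00000034214, chromosome 8: 94172664 to 94173568, plus strand, 3 exons), the neighbour of Mt1 with a like role, was at 3205, 6594 and 2335 CPM in Cx43FL and at 1241, 3701 and 3375 CPM in Cx43KO. The same libraries were highest and lowest as for Mt1, and the genotypes overlapped. Its log2 fold change was -0.54 (95% interval -1.59 to 0.50, edgeR adjusted p = 0.741, exact permutation p = 0.6), and -0.20 without Cx43KO replicate 1 and -0.01 without Cx43FL replicate 2. Of the Mt2 transcript, 355 of 511 bases lie opposite an antisense gene, Gm45774, which is not among the counted genes, and the strand of the counting was not given in the sources used here.

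Cx43FL replicate 2 held 3.56 times the mean of the other Cx43FL libraries for Mt1 and 2.38 times for Mt2. This is the library with the low choroid plexus and ependyma markers given above, and the part of that difference in the metallothionein levels was not tested. The ratio of Mt1 to Mt2 per kb stayed between 0.763 and 1.41 over the 6 libraries, while Mt1 alone spanned 1017 to 9970 CPM.

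Mt3 (ENSMUST00000034211, chromosome 8: 94152607 to 94154146, plus strand, 3 exons), the metallothionein first described as a growth inhibitory factor of the brain, was far less abundant. It was at 55.3, 71.1 and 28.1 CPM in Cx43FL and at 15.8, 44.2 and 28.2 CPM in Cx43KO. Cx43KO replicate 1 was lowest and Cx43FL replicate 2 highest, and the other Cx43KO libraries fell inside the Cx43FL range. The fit gave a log2 fold change of -0.81 (95% interval -1.88 to 0.27, edgeR adjusted p = 0.636, exact permutation p = 0.3), and -0.51 without Cx43KO replicate 1 as well as without Cx43FL replicate 2. Per kb, Mt2 exceeded Mt3 by 60.8 to 126 times in the 6 libraries, and Mt4, a metallothionein of squamous epithelia, had 0 counts in all of them, which allows up to 3 counts in each.

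Gstm1 and Gstm5, glutathione transferases of the mu class that join glutathione to electrophiles, varied by 1.09 and 1.205 times between Cx43FL libraries. Gstm1 (ENSMUST00000004140, chromosome 3: 108012255 to 108017973, minus strand, 8 exons) was at 2250, 2221 and 2418 CPM in Cx43FL and at 1213, 2959 and 3180 CPM in Cx43KO. Thus 2 Cx43KO libraries were above every Cx43FL library and replicate 1 was below them all. The log2 fold change was 0.09 (95% interval -0.70 to 0.89, edgeR adjusted p = 0.954, exact permutation p = 1), and 0.41 without Cx43KO replicate 1 (edgeR adjusted p = 0.636). Of the 50-base stretches of its transcript, 23.2% also occur in Gstm2, Gstm3 or pseudogenes, and reads from them that mapped more than once were removed before counting.

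Gstm5 (ENSMUST00000170058, chromosome 3: 107895821 to 107898686, plus strand, 8 exons) lies in the same gene cluster. It was at 1647, 1984 and 1791 CPM in Cx43FL and at 902, 1633 and 1636 CPM in Cx43KO. All 3 Cx43KO libraries were below all 3 Cx43FL libraries, although the nearest values, 1636 and 1647 CPM, almost touched. Without TMM factors the genotypes overlapped (1696 CPM in Cx43KO replicate 2 and 1691 CPM in Cx43FL replicate 1). Its log2 fold change came to -0.38 (95% interval -1.05 to 0.30, edgeR adjusted p = 0.719), and the exact permutation p of 0.1 is the smallest that 3 against 3 libraries can give. Without Cx43KO replicate 1 it was -0.15. On the transcripts counted, Gstm5 alone of the 10 genes had its Cx43KO values entirely under those of Cx43FL, against 7.45% of tested genes. In 0 of 10 they were entirely over, against 8.08%. Without TMM factors Prdx6 took the place of Gstm5. The ratio of Gstm1 to Gstm5 per kb was 1.15, 0.940 and 1.13 in Cx43FL and 1.13, 1.52 and 1.63 in Cx43KO, so that replicates 2 and 3 of Cx43KO were above the Cx43FL range and replicate 1 within it.

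Prdx6 (ENSMUST00000071718, chromosome 1: 161240112 to 161251219, minus strand, 5 exons), a peroxiredoxin that reduces peroxides and phospholipid hydroperoxides, was at 3406, 4990 and 3394 CPM in Cx43FL and at 1502, 2775 and 3586 CPM in Cx43KO. For this transcript, replicates 1 and 2 of Cx43KO were below every Cx43FL library, and replicate 3 was within their range. Without TMM factors replicate 3 was also below them (3344 against 3451 CPM). The log2 fold change was -0.58 (95% interval -1.38 to 0.21, edgeR adjusted p = 0.642, exact permutation p = 0.3), and -0.31 without Cx43KO replicate 1 and -0.39 without Cx43FL replicate 2. A coding transcript of 959 bases had 20046, 22301 and 23624 counts in Cx43FL and 10908, 30531 and 32638 in Cx43KO. Relative to library totals, with or without TMM factors, every Cx43KO library was there below every Cx43FL library. The overlap for Prdx6 so depends on the transcript, and this one was not fitted on its own.

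Glutathione synthesis begins with glutamate-cysteine ligase, made of the catalytic subunit Gclc and the modifier subunit Gclm. Gclc (ENSMUST00000034905, chromosome 9: 77754535 to 77794485, plus strand, 16 exons) was at 126, 124 and 103 CPM in Cx43FL and at 122, 102 and 130 CPM in Cx43KO. The genotypes interleaved, and Gclc was the 1 gene of 10 that was not lowest in Cx43KO replicate 1. Its means were 117 ± 12.7 and 118 ± 13.9 CPM (SD, n = 3), with a log2 fold change of 0.00 (95% interval -0.61 to 0.62, edgeR adjusted p = 0.998, exact permutation p = 1), and -0.02 without Cx43KO replicate 1.

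Gclm (ENSMUST00000029769, chromosome 3: 122245557 to 122270732, plus strand, 7 exons) was at 285, 243 and 304 CPM in Cx43FL and at 118, 237 and 249 CPM in Cx43KO. For this transcript, replicate 1 of Cx43KO was far below the other libraries, replicate 2 just under the Cx43FL range and replicate 3 inside it. Its log2 fold change came to -0.46 (95% interval -1.18 to 0.26, edgeR adjusted p = 0.681, exact permutation p = 0.2), and -0.19 without Cx43KO replicate 1. With the transcripts of Gclm added up it was -0.31. A coding transcript of 1088 bases had 501, 743 and 806 counts in Cx43FL and 489, 1202 and 1759 in Cx43KO. Relative to library totals, Cx43KO replicate 1 was there close to Cx43FL replicate 1. This transcript was not fitted on its own. Per kb of the transcripts counted for the gene levels, the modifier exceeded the catalytic subunit in 5 of 6 libraries, by 1.18 to 1.81 times. In Cx43KO replicate 1 the ratio was 0.594.

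**Figure D2:**
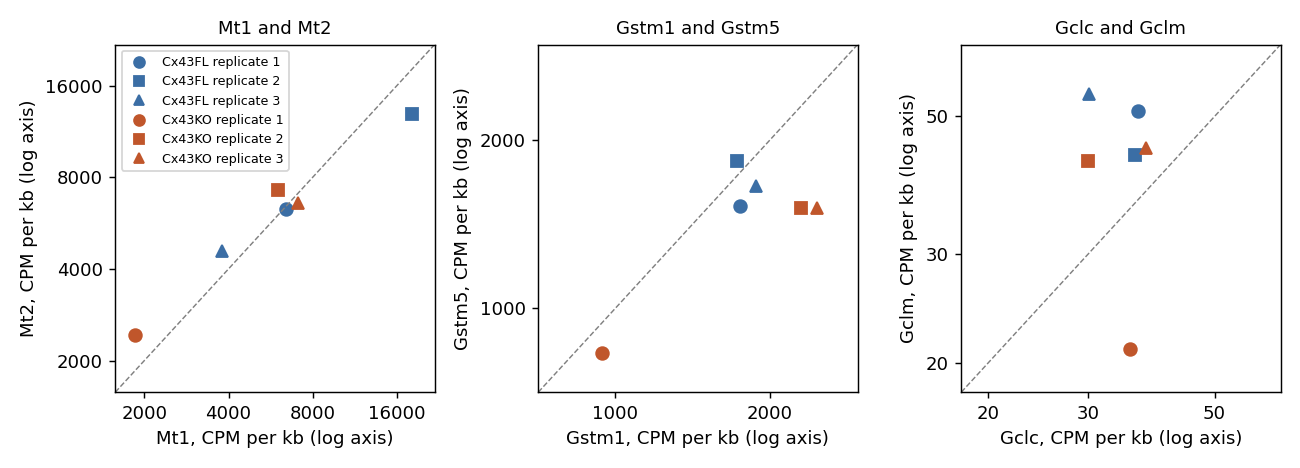
Levels of 3 gene pairs against each other in CPM per kb of the transcripts counted (log axes, dashed line of equal levels), each symbol being 1 library of Cx43FL (blue) or Cx43KO (orange). Mt1 and Mt2 lie along the line over their whole range, Gstm1 exceeds Gstm5 most in Cx43KO replicates 2 and 3, and Gclm falls below Gclc only in Cx43KO replicate 1.

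Nfe2l2 (ENSMUST00000102672, chromosome 2: 75675513 to 75704641, minus strand, 5 exons) was at 132, 160 and 154 CPM in Cx43FL and at 42.0, 141 and 197 CPM in Cx43KO. The Cx43KO libraries fell on both sides of the Cx43FL range, with replicate 1 at 28.3% of the Cx43FL mean. The log2 fold change was -0.23 (95% interval -1.24 to 0.78, edgeR adjusted p = 0.899, exact permutation p = 0.8), and its sign turned without Cx43KO replicate 1 (0.18). These are levels of ribosome-bound mRNA and do not measure the protein, through which Keap1 acts on Nrf2.

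Hmox1 (ENSMUST00000005548, chromosome 8: 75093621 to 75100589, plus strand, 5 exons), the inducible heme oxygenase that breaks heme down to biliverdin, iron and carbon monoxide, was the least abundant of the 10 genes. It was at 31.2, 31.3 and 28.1 CPM in Cx43FL and at 6.83, 39.1 and 43.0 CPM in Cx43KO, from 110 counts in the lowest library to 1392 in the highest. As for Gstm1, replicates 2 and 3 of Cx43KO were above every Cx43FL library and replicate 1 was below. The fit gave a log2 fold change of -0.03 (95% interval -1.33 to 1.28, edgeR adjusted p = 0.995, exact permutation p = 1), and 0.44 without Cx43KO replicate 1 (edgeR adjusted p = 0.783). The constitutive heme oxygenase Hmox2 exceeded it per kb by 2.90, 2.90 and 3.13 times in Cx43FL and by 8.44, 2.28 and 2.23 times in Cx43KO, although 892 of the 1730 bases of its transcript lie opposite Cdip1.

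**Figure D3:**
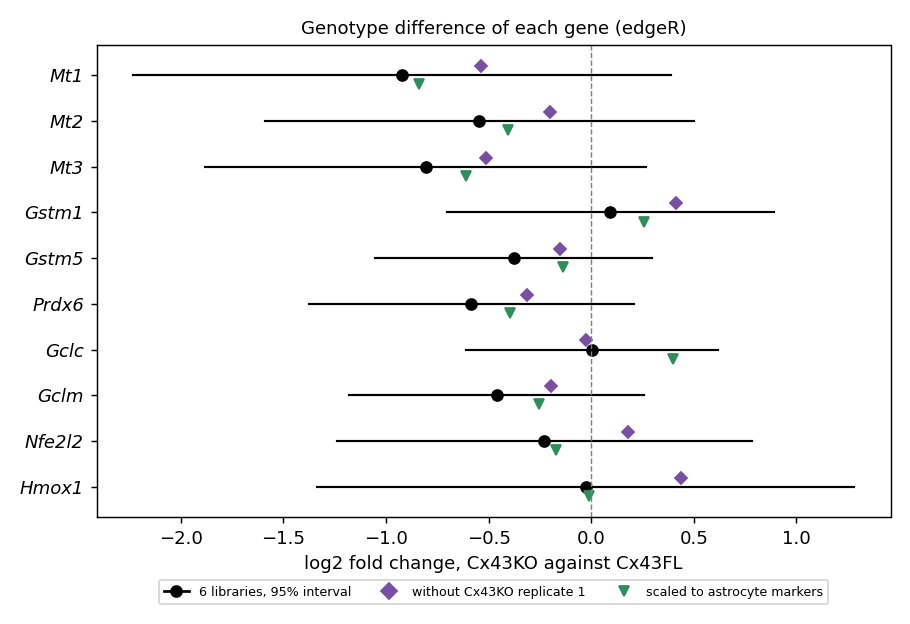
Log2 fold change of each of the 10 genes in Cx43KO against Cx43FL by edgeR, with all 6 libraries (black, 95% interval), without Cx43KO replicate 1 (purple) and with libraries scaled to astrocyte markers (green). Every interval includes 0, and without Cx43KO replicate 1 the values of Gstm1, Nfe2l2 and Hmox1 lie above 0.

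Cx43KO replicate 1 was the lowest of the 6 libraries for 9 of the 10 genes, against 29.9% of tested genes. In these 9 genes it held 19.6% (Mt1) to 52.8% (Gstm1) of the Cx43FL mean, and for Gclc 104%. The astrocyte markers moved in the same library: 12 of 15 were lowest there, and their geometric mean was 454 CPM against 895 to 1003 CPM in Cx43FL, 901 CPM in replicate 2 and 1175 CPM in replicate 3 of Cx43KO. Divided by this geometric mean, 2 of the 10 genes (Nfe2l2 and Hmox1) were still lowest in Cx43KO replicate 1, and 5 were within the range of Cx43FL there. Relative to the markers, Hmox1 was 0.0150 in that library against 0.0280 to 0.0349 in Cx43FL, and Gclc was 0.268 against 0.102 to 0.140. With the libraries scaled to the astrocyte markers, the median log2 fold change of the 10 genes was -0.21, that of all tested genes 0.45, and 0 of 10 genes were called. The 15 markers include Gja1. In 2 of them (13.3%, against 7.45% of tested genes), Gjb6 and Glul, every Cx43KO library was below Cx43FL. Neither passed the test (log2 fold change -0.83 and -0.72, edgeR adjusted p = 0.540 and 0.609). In 0 of the 15 every Cx43KO library was above, against 8.08% of tested genes. The scaling takes the markers as equal between genotypes, which these values do not settle.

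**Figure D4:**
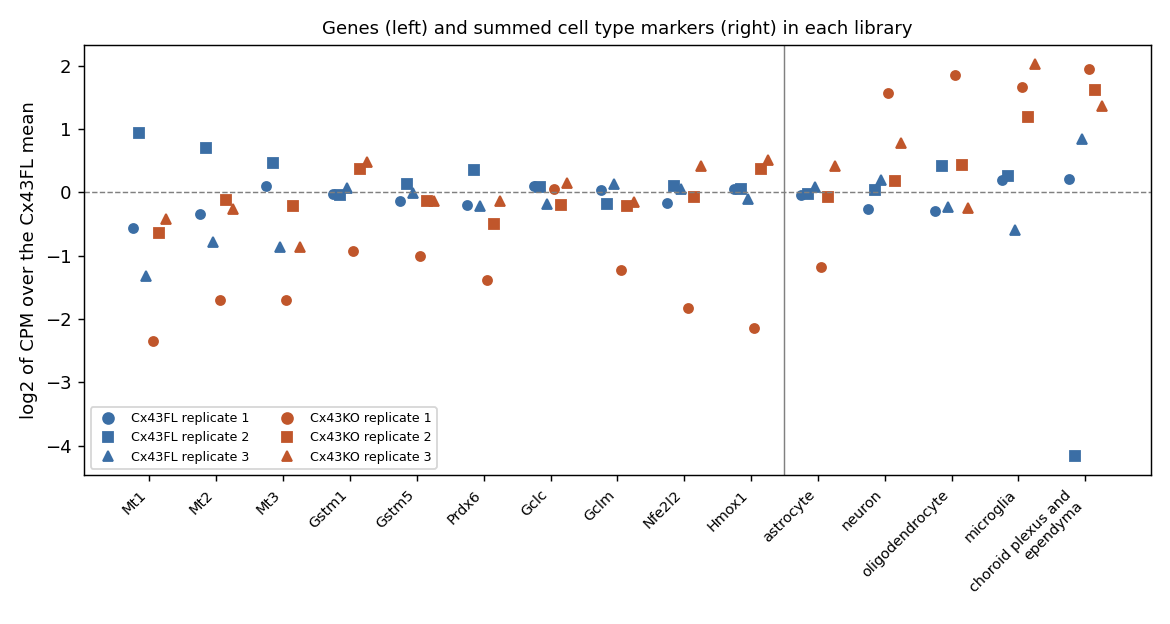
CPM of the 10 genes (left) and summed CPM of marker genes of 5 cell types (right) in each library, as log2 of the value over the Cx43FL mean. Cx43KO replicate 1 (orange circles) is low for 9 genes and for the astrocyte markers and high for the neuron and oligodendrocyte markers, and Cx43FL replicate 2 (blue squares) is high for Mt1 and Mt2 and low for the choroid plexus markers. Microglia and choroid plexus markers are higher in every Cx43KO library than in any Cx43FL library.

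The wider pathways were read from 7 lists with 92 genes, the 10 genes included, of which 87 were tested. Neither edgeR nor DESeq2 with its prior called any of the 87, against 0.00738% and 0.827% of tested genes. At an unadjusted edgeR p below 0.05 there were 2 higher and 2 lower genes in Cx43KO, against 8.34% of tested genes in either direction. All 3 Cx43KO libraries were above Cx43FL for 4 of 87 genes and below for 7 of 87 (8.08% and 7.45% of tested genes). The median log2 fold change of the 87 genes was -0.08, and 0.04 without Cx43KO replicate 1.

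Among the partners of Nrf2, Keap1, which targets it for degradation, ranged over 23.0 to 37.1 CPM (Cx43FL) and 20.3 to 34.9 CPM (Cx43KO) (log2 fold change -0.12, edgeR adjusted p = 0.949). Sqstm1, the autophagy receptor that binds Keap1, had the highest level per kb of the 9 genes of Nrf2 control in Cx43FL (114 CPM per kb, Cul3 101). In Cx43KO Cul3 was higher (96.6 against 87.9 CPM per kb). Sqstm1 gave a log2 fold change of -0.37 (edgeR adjusted p = 0.719), and -0.15 without Cx43KO replicate 1. Of the common targets of Nrf2 examined, none passed the test. Nqo1, a quinone reductase, was at 20.6, 10.5 and 26.4 CPM in Cx43FL and at 7.26, 36.5 and 30.8 CPM in Cx43KO, so that replicates 2 and 3 were above Cx43FL and replicate 1 below, the order seen for Gstm1 and Hmox1. Srxn1, which repairs overoxidized peroxiredoxins, ranged over 77.6 to 87.9 CPM (Cx43FL) and 68.1 to 74.4 CPM (Cx43KO), which do not overlap, and gave -0.21 (edgeR adjusted p = 0.840). Txnrd1, the cytosolic thioredoxin reductase, gave -0.05 (edgeR adjusted p = 0.976).

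Around glutathione, the cystine transporter subunit Slc7a11 ranged over 81.5 to 156 CPM (Cx43FL) and 102 to 204 CPM (Cx43KO; log2 fold change 0.31, edgeR adjusted p = 0.809, and 0.08 without Cx43KO replicate 1), and its partner Slc3a2 gave 0.02. Glutathione reductase, Gsr, was at 58.2 to 126 and 70.4 to 85.6 CPM (-0.05). Glutathione synthetase, Gss, ranged over 4.11 to 24.4 CPM (Cx43FL) and 17.7 to 25.1 CPM (Cx43KO), and its fold change was 0.81 on the log2 scale (95% interval -0.61 to 2.23, edgeR adjusted p = 0.715). None of the 8 tested genes of this list had genotypes apart. Of the 16 tested glutathione transferases, 10 had negative and 6 positive fold changes, where 6180 of all 13545 tested genes were negative. Cx43KO replicate 1 was the lowest library for 11 of the 16. Gstm5 was the only one whose genotypes did not overlap (with TMM factors), and Gstm1 the most abundant per kb of the transcripts counted.

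Peroxidases, thioredoxin genes and dismutases had a median log2 fold change of -0.26 over 24 genes, and -0.15 without Cx43KO replicate 1. Of these genes 18 were negative, against 6180 of all 13545 tested genes. In 17 of the 24 (70.8%, against 29.9% of tested genes) Cx43KO replicate 1 was the lowest library. Prdx2, a cytosolic peroxiredoxin, was at 378, 434 and 351 CPM in Cx43FL and at 214, 296 and 253 CPM in Cx43KO. Its genotypes did not overlap, with a log2 fold change of -0.61 (95% interval -1.19 to -0.02), but the edgeR adjusted p was 0.592. Sod1, the copper and zinc superoxide dismutase, was at 748, 1006 and 760 CPM against 338, 629 and 682 CPM, with no overlap and a log2 fold change of -0.61 (edgeR adjusted p = 0.609). Idh1, which makes cytosolic NADPH and was the most abundant gene of NADPH supply per kb, was at 262, 253 and 335 CPM against 116, 180 and 214 CPM, again without overlap (-0.74, edgeR adjusted p = 0.569). Without Cx43KO replicate 1 these 3 values were -0.50, -0.36 and -0.53. Fth1, the ferritin heavy chain that stores iron, led the quinone, heme and iron list per kb and spanned 622 to 1769 CPM (Cx43FL) and 661 to 1921 CPM (Cx43KO).

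Of the lists, a pair of zinc transport genes had the largest fold changes toward Cx43KO. Slc30a1, the zinc exporter of the plasma membrane and a target of Mtf1 as are Mt1 and Mt2, was at 20.7, 15.6 and 17.1 CPM in Cx43FL and at 145, 23.1 and 32.9 CPM in Cx43KO. All Cx43KO libraries were above Cx43FL, with replicate 1 far above the rest, the library in which Mt1 and Mt2 were lowest. In that library the summed astrocyte markers were also lowest and the summed neuron and oligodendrocyte markers highest. The part of this difference in the Slc30a1 level was not tested. The log2 fold change was 1.91 (95% interval 0.52 to 3.31, edgeR adjusted p = 0.540) and 0.65 without that library. Its transcript shares 468 bases with the antisense gene 1700034H15Rik. Slc39a14, an importer of zinc, iron and manganese, was at 2.31, 13.8 and 8.21 CPM in Cx43FL and at 39.0, 20.7 and 27.5 CPM in Cx43KO. Its genotypes did not overlap either, and the log2 fold change was 1.84 (95% interval 0.39 to 3.29, edgeR adjusted p = 0.540), and 1.56 without Cx43KO replicate 1. Mtf1 itself ranged over 83.6 to 117 CPM (Cx43FL) and 87.1 to 150 CPM (Cx43KO; log2 fold change 0.14, edgeR adjusted p = 0.910).

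**Figure D5:**
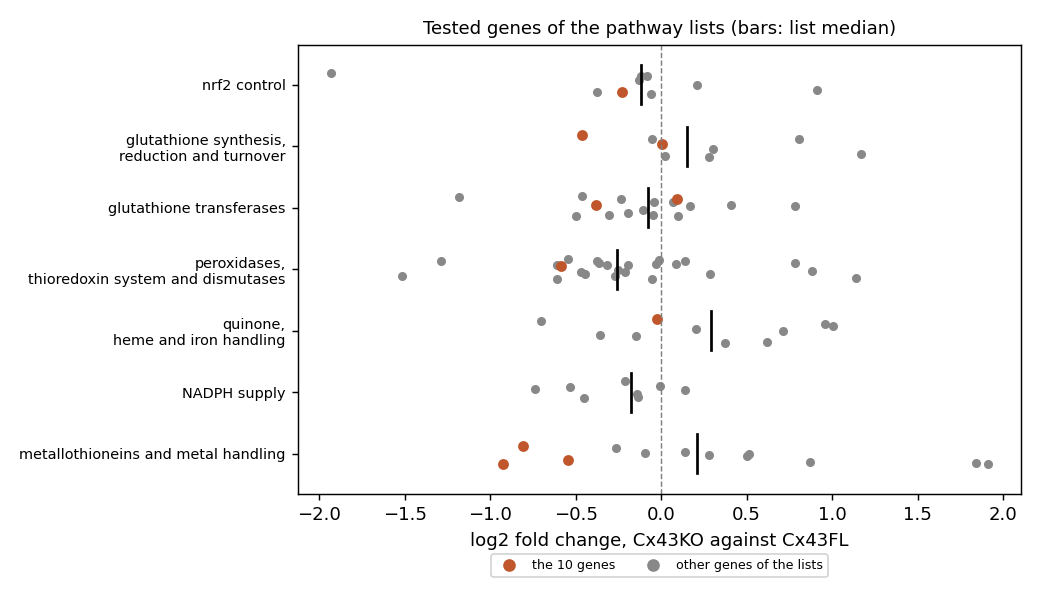
Log2 fold change in Cx43KO against Cx43FL (edgeR) of the 87 tested genes in 7 pathway lists, with the 10 genes in orange, other genes in grey and a bar at each list's median. The medians run from -0.26 for peroxidases, thioredoxin system and dismutases to 0.29 for quinone, heme and iron handling, and Slc30a1 and Slc39a14 are the 2 points furthest right.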

How the data were processed

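Polysomal mRNAs were measured in 3 Cx43FL and 3 Cx43KO libraries, grouped by the sample labels. The authors deposited raw counts per Ensembl transcript, made after read filtering, mapping with STAR on mm10, removal of reads mapping more than once and counting with HTSeq 0.5.3. A read was counted on every transcript it overlapped. Of 75466 transcripts, 73157 were matched to GENCODE M21 (GRCm38). The other 2309, holding 1.60% to 1.78% of counts, were left out. Each gene was taken as its transcript with the highest total, since the test had been planned for genes. The transcript totals were 33423491 to 77030398 per library.

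Genotypes were compared over all 13545 tested genes with edgeR 4.0.16 in R 4.3.3 (TMM, filterByExpr, quasi-likelihood F test, Benjamini-Hochberg adjustment, genotype alone in the model). Intervals cover 95%. For each of the 10 genes, log2(CPM + 0.5) was also tested by an exact permutation of the libraries (2-sided, smallest p 0.1). CPM was the count scaled by the total over the tested genes times the TMM factor. Limits set by a count of 0 use 3 counts and cover counting error only. The fits were tested on simulated data. Same-group libraries differed by more than sampling noise (chi-square per degree of freedom 33.7 to 487).

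The genes and lists were chosen with earlier results of these data known. Named are the 10 genes, genes of the pathway lists that were called or at unadjusted p below 0.05, the most abundant gene per length of each list, and Keap1, Nqo1, Slc7a11, Gss, Gsr, Txnrd1, Srxn1, Hmox2, Mtf1 and Slc30a1. Sod1, Mt4, Prm1 and overlapping genes were named after their values were seen. Alternatives were DESeq2 1.42.0 with and without its prior, limma-voom 3.58.1 with sample weights, other scalings and filters, the replicate number as a block, transcripts of a gene added up, and leaving out each library. CPM without TMM factors, scaled by the total of all gene counts, was added after seeing the data.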

Additional observations from a re-analysis of the deposited data

How the results depend on the processing

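Over 10 alternatives other than leaving out a library, 89 of 100 values of the 10 genes kept their direction and 11 turned; on leaving out a library, 53 of 60 did and 7 turned. The lowest adjusted p of any of the 10 genes in any setting was 0.317, and 0 of them were called in any setting. The log2 fold change of Gclc, 0.0048, turned to -0.0015 with DESeq2 size factors, -0.0559 with upper-quartile factors, -0.0095 with at least 10 counts in every library, -0.0015 and -0.0013 in DESeq2 without and with its prior, -0.0782 in limma-voom and -0.0011 with transcripts added up, and ran from -0.0839 to 0.0967 on leaving out a library. That of Gstm1 ran from -0.139 to 0.415, that of Hmox1 from -0.392 to 0.438 and that of Nfe2l2 from -0.696 to 0.181. Hmox1 was at 0.1431 and Mt2 at 0.0057 in limma-voom, and Hmox1 at 0.0362 with transcripts added up. With the replicate block Gstm1 was at -0.0208. The sample weights of limma-voom moved the median of the 10 genes from -0.42 to -0.15 and Mt1 from -0.92 to -0.17. Without TMM factors 1 of the 10 genes, Prdx6 in place of Gstm5, had every Cx43KO library below Cx43FL, and 9 were again lowest in Cx43KO replicate 1.

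Over all genes, edgeR called 1 gene, the protamine Prm1 (0 scaled to astrocyte markers, with at least 10 counts in every library or with transcripts added up), limma-voom 2, DESeq2 140 without and 112 with its prior, and the count ran from 0 to 11 on leaving out a library, with 11 without Cx43KO replicate 1. The replicate block gave 2. Deviations of same-numbered libraries from their group means had correlations of 0.0114, -0.0040 and -0.0547. These values do not show a pairing by number. They cannot exclude one either, because Cx43KO replicate 1 stood far apart from the other libraries. The median of the pathway lists, -0.08, was 0.1632 when scaled to astrocyte markers, where that of all tested genes went from 0.07 to 0.45. The cause of these changes was not tested. With 3 libraries per genotype and a biological coefficient of variation of 0.60, the 95% intervals set the limit on what could be seen.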

Other observations

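Of the iron genes in the lists, Tfrc, the transferrin receptor, was at 52.9, 36.9 and 49.5 CPM in Cx43FL and at 55.7, 73.4 and 84.6 CPM in Cx43KO, with all Cx43KO libraries above Cx43FL and a log2 fold change of 0.62 (edgeR adjusted p = 0.613). Sod3, the extracellular superoxide dismutase, was at 10.9, 6.04 and 10.4 CPM against 11.5, 13.3 and 25.6 CPM, also without overlap (log2 fold change 0.89, edgeR adjusted p = 0.665), whereas the cytosolic Sod1 lay below Cx43FL in all Cx43KO libraries. Gpx7, a peroxidase of the endoplasmic reticulum, was at 6.92, 15.1 and 12.8 CPM against 0.683, 4.86 and 6.58 CPM (log2 fold change -1.51, edgeR adjusted p = 0.632), and Blvrb, a biliverdin reductase, at 17.4, 20.6 and 26.9 CPM against 13.2, 9.32 and 17.3 CPM (-0.70, edgeR adjusted p = 0.687). These genes were chosen after their values were seen, because their genotypes did not overlap, and their differences did not pass the test.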
